A study of Mus musculus with 64 samples.

Results

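Transposon insertions were mapped in Trps1 and Crim1, 2 genes that took insertions in tail tissue of mice used in a lymphoma screen. Both genes were chosen by their numbers of insertions in tails and tumours, so those numbers are a description here and carry no test. Trps1 was the span chr15:50654757-50890041 and Crim1 the span chr17:78200248-78376592 of GRCm38 (mm10), which are also the spans of their curated RefSeq transcripts. These regions held 186 of the 385883 deposited lines, 135 in Trps1 and 51 in Crim1. With an insertion counted once per sample and target site, 185 of 299627 insertions lay in them. The 2 genes are set against all 22541 genes with a target site on the chromosomes used.

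The samples came from 64 mice, each giving 1 sample: 30 lymphomas and 12 tails of PiggyBac (PB) mice, and 11 lymphomas and 11 tails of Sleeping Beauty (SB) mice. All mice carried an ITP transposon, which can activate or interrupt the genes it enters, and a transposase knocked in at Rosa26 (Rosa26PB or Rosa26SB) that is active throughout the body. The SB mice were bred from parents homozygous for the Blm m3 allele, which raises genome instability; for the PB mice the sources used here name only the ITP transposon and the transposase. The background was mixed C57BL/6, 129Sv and FVB, the tumours were diffuse large B cell lymphomas, and age was not given in the sources used here. A tail is a mixture of skin, hair follicles, bone, cartilage, muscle, nerve and blood, and the cell type that carried an insertion cannot be told from its DNA. PB and SB differ in transposase, cohort and breeding as well, and these cannot be told apart in any comparison of the systems.

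Trps1 encodes a GATA-type zinc finger protein that acts mainly as a repressor, is expressed in the mesenchyme of hair follicles and in cartilage, and gives trichorhinophalangeal syndrome, with sparse hair and short fingers, when it is lost in humans. Crim1 encodes a membrane protein with cysteine-rich repeats that binds bone morphogenetic proteins (BMPs) inside the cell and at its surface and is needed in the developing skin, kidney, eye and vessels. PB inserts at TTAA and SB at TA, and both tend to reinsert close to the site they leave, for which reason the donor chromosome 14 was left out. The sex chromosomes were left out too, and neither gene lies on any of these.

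All 186 lines lay on the motif of their transposon. Trps1 holds 2064 TTAA and 18455 TA sites, and Crim1 holds 1017 TTAA and 9823 TA sites. The 46, 63, 13 and 13 Trps1 insertions of PB tails, PB tumours, SB tails and SB tumours used 46, 61, 13 and 13 positions, and the 14, 21, 14 and 1 insertions of Crim1 used 13, 21, 14 and 1. Over all groups of a system, 5 TTAA sites in Trps1 and 1 in Crim1 were used by 2 samples each. Those 6 sites are shown first, as 30 bases of the GRCm38 (mm10) forward strand from RefSeq's genome with the motif in capitals, because separate mice carried an insertion there. The 4 sites that follow had the highest read percentile in each gene and system, and show the insertions most prominent in their samples; the read percentile is the rank of an insertion by its reads among all insertions of its sample, on a scale to 100.
Trps1, PB tumours 3 and 22, chr15:50741648-50741677: tttgaagtttcatTTAAaaatccatcatag
Trps1, PB tail 3 and PB tumour 15, chr15:50746663-50746692: gccctaagttttcTTAAaaacaaagatggt
Trps1, PB tail 3 and PB tumour 18, chr15:50783191-50783220: atctcatgtttgcTTAAcacggtaatgccc
Trps1, PB tumours 8 and 23, chr15:50795633-50795662: tttccataagatcTTAAcaagcacgtggct
Trps1, PB tail 4 and PB tumour 25, chr15:50818172-50818201: gccctgcttcctcTTAAagtctcattcatt
Crim1, PB tails 3 and 6, chr17:78244360-78244389: tgcctcattttttTTAAtaaaggcaatcat
Trps1, PB tumour 24, 99.4th percentile, chr15:50798457-50798486: atactagctcaatTTAAgcaagggcacttg
Trps1, SB tail 5, 97.5th percentile, chr15:50881939-50881968: ctgtgtcaattaccTAgttaccaacgttgt
Crim1, PB tail 2, 99.5th percentile, chr17:78323309-78323338: aaggcctgcttatTTAAtaaaattattttt
Crim1, SB tail 3, 97.85th percentile, chr17:78222594-78222623: ccattatgtctatgTAgcttggcatagaac

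The bases around the SB sites had a feature that the choice of the genes did not use. In Trps1, an A lay 3 bases before and a T 3 bases after the TA, the pattern ANNTANNT read on the forward strand, at 8 of 13 SB tail insertions (61.5%) and 7 of 13 SB tumour insertions (53.8%), against 13.04% of all TA sites of the gene. In Crim1, 8 of 14 SB tail insertions (57.1%) and the 1 SB tumour insertion had it, against 9.79% of all TA sites. The pattern reads the same on both strands. For PB, the pattern TNNTTAANNA was found at 9 of 46 tail insertions in Trps1 (19.6%) and 12 of 63 tumour insertions (19.05%), against 12.6% of all TTAA sites, and at 5 of 14 (35.7%) and 6 of 21 (28.6%) in Crim1, against 10.2%. Insertions had the pattern at a higher share than the sites of the gene in every group. These shares are descriptions, with no test.

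Trps1 was hit in 11 of 12 PB tails and Crim1 in 8 of 12. Trps1 took 0 to 9 insertions per PB tail with a median of 3, which was 0 to 13.2 per 10000 insertions of the sample with a median of 9.01 and a mean of 8.53 ± 3.96 (SD, n = 12). In PB tumours the rate was 0 to 26.4 with a median of 3.44 and a mean of 4.73 ± 5.04 (SD, n = 30). Of the 12 tails, 11 lay above the tumours' median, whereas 3 of 30 tumours lay above the tails' median. The groups overlapped, since 1 tail had no Trps1 insertion among 2035 and 1 tumour with 2 insertions among 757, the fewest of any PB tumour, stood above all tails. Without that tumour, the mean of the PB tumours was 3.98 ± 2.98.

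In SB mice, unlike the description of the pair as genes hit in tails, the tails did not have the higher mean rate for Trps1. SB tails had 0 to 5.76 Trps1 insertions per 10000, with a median of 3.05 and a mean of 2.66 ± 2.23 (SD, n = 11), and SB tumours had 0 to 12.2, with a median of 0 and a mean of 3.13 ± 4.20 (SD, n = 11). Trps1 insertions were in 7 of 11 SB tails and 5 of 11 SB tumours, and 2 tumours stood above all tails. The tails' mean thus lay above that of the tumours in PB mice and below it in SB mice, but with only insertions of at least 10 reads the SB means were 2.35 in tails and 1.36 in tumours, so the SB direction turned. Whether the systems differed was not tested.

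Crim1 was more often hit in tails than in tumours in both systems. In PB tails its rate was 0 to 9.91 per 10000 with a median of 1.90 and a mean of 2.98 ± 3.41 (SD, n = 12), and in PB tumours 0 to 3.45 with a median of 0.529 and a mean of 1.24 ± 1.35 (SD, n = 30). These groups overlapped: 8 of 12 tails lay above the tumours' median, and 11 of 30 tumours lay above the tails' median. In SB tails the rate was 0 to 7.88 with a median of 2.33 and a mean of 3.08 ± 2.43 (SD, n = 11). Among the 11 SB tumours only a spleen tumour had a Crim1 insertion, at 2.24 per 10000, so that the mean was 0.204 ± 0.675. No SB tumour lay above the median of the SB tails, and 9 of 11 tails lay above the median of the tumours.

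**Figure D1:**
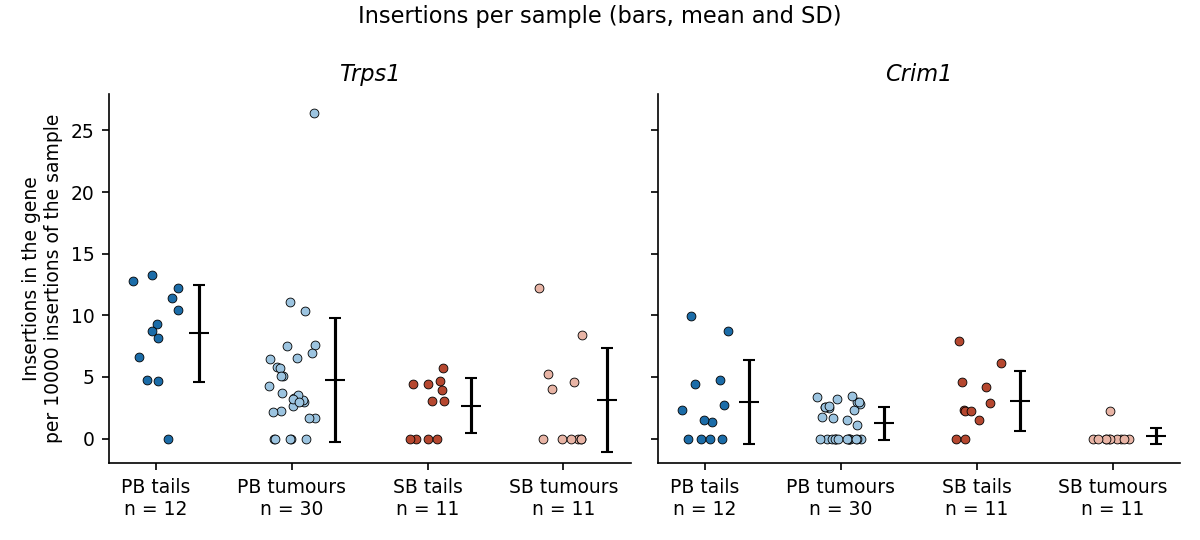
Insertions in Trps1 (left) and Crim1 (right) per 10000 insertions of the sample, with a point for each sample of the 4 groups, and a bar for the mean with its SD beside them. PB tails stand highest for Trps1, at a median of 9.01 against 3.44 in PB tumours, with 1 tumour at 26.4, and 10 of 11 SB tumours have no Crim1 insertion.

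Samples without an insertion allow a rate above 0, since few insertions were mapped in each. The samples held 757 to 10801 insertions, and 3 insertions of the total would be 14.7 per 10000 in the PB tail without Trps1 and 7.67 to 14.7 in the 4 PB tails without Crim1. In the 10 SB tumours without Crim1 this limit ran from 3.41 to 39.5. Limits of this kind cover counting error only. Both genes were hit in 8 of 12 PB tails, 13 of 30 PB tumours, 6 of 11 SB tails and 0 of 11 SB tumours.

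Sample names were written in a joined or a separated form, which may mark a batch. Trps1 averaged 8.66 ± 2.98 per 10000 in the 5 PB tails with joined names and 8.43 ± 4.77 in the 7 with separated names, against 4.99 ± 5.71 in 22 and 3.998 ± 2.51 in 8 PB tumours. Crim1 averaged 4.10 ± 3.83 and 2.18 ± 3.11 in the same PB tails, against 1.32 ± 1.33 and 1.003 ± 1.47 in the tumours. The mean of the PB tails thus lay above that of the PB tumours for both genes within each form. All SB tumours had joined names; against their 3.13 ± 4.20 and 0.204 ± 0.675, the 7 SB tails of this form had 2.17 ± 2.12 for Trps1 and 2.39 ± 2.27 for Crim1, and the 4 SB tails with separated names had 3.52 ± 2.47 and 4.29 ± 2.54.

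The levels were also set against the number of target sites. If the insertions of the chromosome had fallen evenly on its TTAA sites, 7.70 of those in PB tails would have been in Trps1, and 46 were, a ratio of 5.98. The ratio was 2.52 in PB tumours, 1.89 in SB tails and 2.23 in SB tumours. For Crim1 it was 3.83 in PB tails, 1.66 in PB tumours, 3.86 in SB tails and 0.334 in SB tumours, where 1 insertion was found and 2.99 were expected. The median gene with at least 3 expected insertions had a ratio of 1.06 in PB tails, 1.21 in PB tumours, 1.12 in SB tails and 1.05 in SB tumours. By this ratio Trps1 ranked 4 of 1461 such genes in PB tails, 843 of 4985 in PB tumours, 155 of 1437 in SB tails and 75 of 1187 in SB tumours. Crim1 ranked 30, 1753 and 6 in the first 3 of these groups and had under 3 expected insertions in SB tumours.

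In PB tails the ratio of observed to expected insertions was lower beside Trps1 than in it. In a window as long as the gene on its upstream side, PB tails had 16 insertions in 9 tails, 2.37 times the expected number, and on the downstream side 7, or 1.15 times. PB tumours had ratios of 1.05 and 0.760 there. Trps1 lies in a gene-poor stretch. The gene before it on the chromosome, Csmd3, a long gene of the nervous system, lies on the same strand as Trps1 with its start 1863 kb away, and had 7 insertions in PB tails with 39.1 expected. The one after it, the noncoding Gm19303, is on the same strand too with its 3′ end 342 kb away, and had 12 in PB tails against 9 in PB tumours, and it was called higher in PB tails (log2 1.72 ± 0.52 SE, adjusted p = 0.0317 by edgeR's quasi-likelihood test). The microRNA gene Mir1907 lies within the Trps1 span and held no insertion.

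Around Crim1 the flanking windows had 6 insertions each in PB tails, 1.52 and 1.78 times the expected number upstream and downstream, and 9 each in PB tumours, 0.656 and 0.769 times. SB tails had 7 upstream and 1 downstream. The next gene before it, Gm32282, lies on the opposite strand with its own start 0.223 kb from the Crim1 start, with 1 insertion each in PB tails and PB tumours. Vit, which encodes an extracellular matrix protein, starts 131 kb beyond Crim1 and had 7 insertions in PB tails and 8 in PB tumours, with a difference that did not pass (log2 1.17 ± 0.57 SE, adjusted p = 0.257 by edgeR). Fez2, on the opposite strand, overlaps the 3′ end of Crim1, and 4 of the 21 Crim1 insertions of PB tumours lay in the overlap, so they belong to both genes. Fez2 had 0 insertions in PB tails and 8 in PB tumours.

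Along Trps1, the pooled insertions of PB tails were most frequent near the start of the gene and least frequent in its middle. In the transcript NM_032000.2 with 6 exons, intron 1 spans 42.7 kb and intron 4 spans 157 kb. Intron 1 held 20 of the 46 PB tail insertions (43.5%, 7 tails) with 17.5% of the TTAA sites, against 9 of 63 in PB tumours (14.3%, 7 tumours). Intron 4 held 21 PB tail insertions (45.7%) and 46 PB tumour insertions (73.0%), with 68.3% of the sites. Of 3 equal parts of the gene, the first held 26 PB tail insertions in 9 tails (56.5%, with 32.0% of the sites). The middle held 4 in 3 tails (8.70%, with 35.7%) and the last 16 in 8 tails (34.8%, with 32.3%). PB tumours had 19 (30.2%), 26 (41.3%) and 18 (28.6%) there. These shares pool insertions, and 1 tail can give several. With 1 mean distance from the start per sample, the median was 123 kb over 11 PB tails and 113 kb over 25 PB tumours. The densest 10 kb in PB tails, from 50873117 to 50882844 in intron 1, held 11 insertions of 4 tails, so several of these came from the same samples. In SB the same introns held 6 and 6 of 13 tail insertions, and 1 and 9 of 13 tumour insertions.

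Insertions in exons were few. PB tails had 1 in Trps1, in exon 6, and PB tumours had 3, with 2 in exon 6 and 1 in exon 1; no SB insertion lay in an exon of either gene. In Crim1, of 17 exons in NM_015800.3, only exon 17 was hit, in 1 PB tumour. All other insertions were intronic.

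Most insertions of Crim1 in tails lay in the 5′ part of the gene in both systems. Intron 1 of 36.6 kb held 6 of 14 PB tail insertions (42.9%, in 6 tails) and 7 of 14 SB tail insertions (50.0%, in 5 tails), with 20.3% of the TTAA and 21.03% of the TA sites. In PB tumours it held 1 of 21 (4.76%), and the 1 insertion of the SB tumours lay there too. The first of 3 equal parts of the gene, 58.8 kb long, held 10 of 14 PB tail insertions from 7 tails, 9 of 14 SB tail insertions from 6 tails and 3 of 21 PB tumour insertions, and the last part held 2, 0 and 8.

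**Figure D2:**
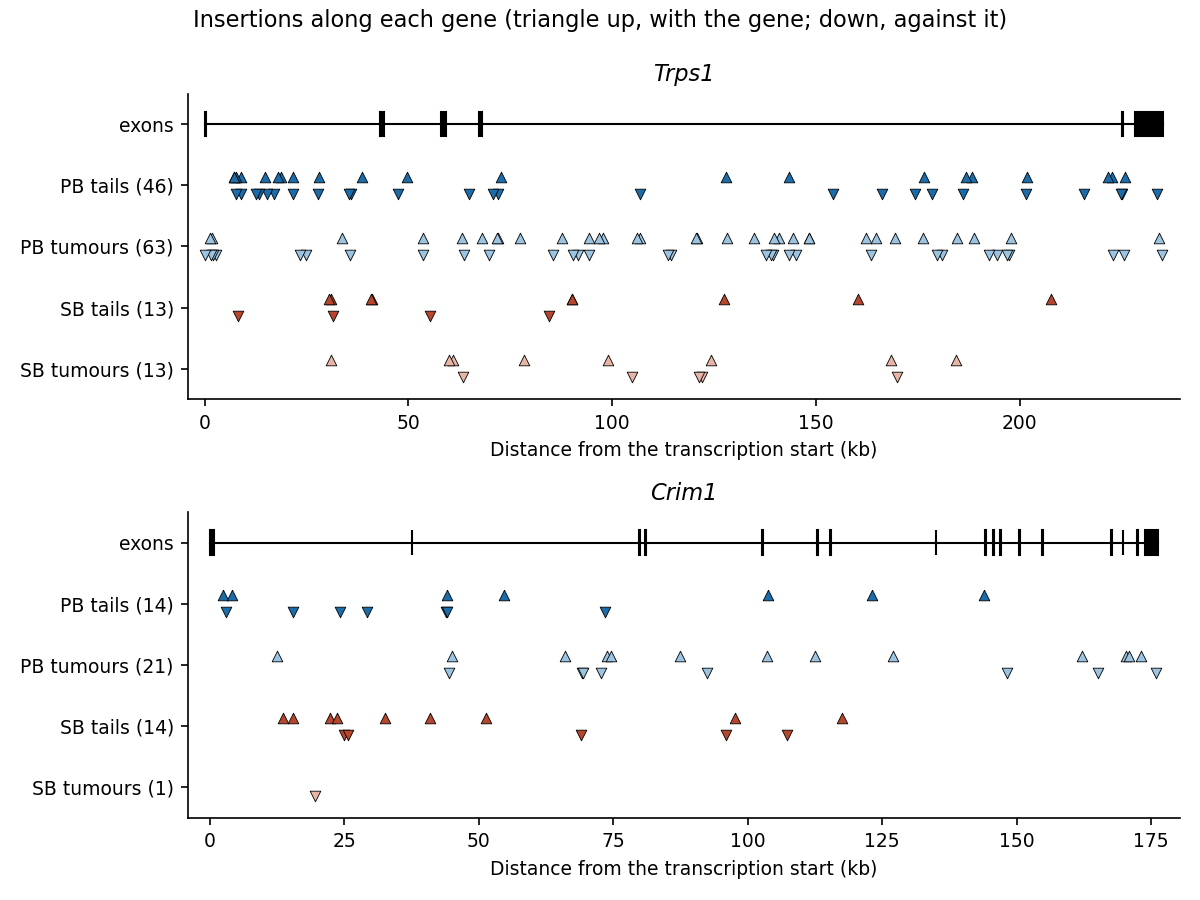
Insertions along Trps1 (top) and Crim1 (bottom) by distance from the transcription start in kb, with the exons of the reference transcript to scale and a triangle for each insertion of the 4 groups, pointing up where the transposon lay with the gene and down where it lay against it. PB tail insertions of Trps1 are dense in the first intron and sparse in the middle of the gene, and 10 of 14 PB tail insertions and 9 of 14 SB tail insertions of Crim1 lie within 58.8 kb of the start.

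Position, strand and reads had no part in the choice of the genes and were tested over the samples that carried an insertion, with a mean per sample. The 18 tests form a family with Benjamini-Hochberg adjustment, and 0 of 18 passed at an adjusted p under 0.05. The 3 tests of Crim1 in SB tails against SB tumours had 1 tumour and could not pass. An unadjusted p below 0.05 was found in 2 tests. The lower of these was the distance of Crim1 insertions from the start in PB, which ran from 2.40 to 144 kb over 8 tails with a median of 39.9 kb and a mean of 47.5 ± 43.9 kb, and from 45.0 to 175 kb over 15 tumours with a median of 87.5 kb and a mean of 102.6 ± 43.5 kb. The difference of -55.1 kb had an exact two-sided permutation p of 0.00946 and an adjusted p of 0.170, and so did not hold after correction. Within the joined name form the difference was -28.9 kb and within the separated form -107 kb. With insertions of at least 10 reads it was -23.4 kb over 6 tails and 6 tumours (exact permutation p = 0.407). SB tails lay at 57.4 ± 33.1 kb over 9 tails, and the difference of PB from SB tails was -9.92 kb (exact permutation p = 0.608, adjusted p = 0.824), 12.5 kb with joined and -33.5 kb with separated names, so the direction turned with the name form. The SB tumours gave 1 sample at 19.6 kb, with which no p under 0.1 can be reached.

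Trps1 insertions had a mean distance of 106 ± 52.9 kb in 11 PB tails, 119 ± 51.5 kb in 25 PB tumours, 80.8 ± 46.2 kb in 7 SB tails and 109 ± 25.8 kb in 5 SB tumours. The adjusted p of the 3 comparisons lay between 0.611 and 0.792 (permutation tests, exact for SB). The PB difference between tails and tumours turned from -12.8 kb to 9.32 kb between medians and to 7.35 kb with at least 10 reads. The shares of introns and of the 3 parts given above are descriptions beside these tests of the mean position.

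The orientation of the transposon was mixed in both genes. In Trps1 the transposon lay with the gene at 21 of 46 insertions in PB tails (45.7%), 32 of 63 in PB tumours (50.8%), 9 of 13 in SB tails (69.2%) and 8 of 13 in SB tumours (61.5%). In Crim1 it did so at 7 of 14 in PB tails (50.0%), 13 of 21 in PB tumours (61.9%) and 9 of 14 in SB tails (64.3%). The mean share per sample in Trps1 was 49.8 ± 29.2% over 11 PB tails and 76.2 ± 41.8% over 7 SB tails (exact permutation p = 0.133, adjusted p = 0.611), and for Crim1 it was 45.8 ± 43.4% over 8 PB tails and 68.5 ± 34.8% over 9 SB tails (exact permutation p = 0.275, adjusted p = 0.611). For Crim1, PB minus SB tails was 15 points with joined and -62.5 with separated names, so the direction turned with the name form. For Trps1 it was -3.10 and -54.8, and 16.3 over samples with at least 3 insertions. Of the 6 TTAA sites shared by 2 samples, 1 had the transposon in the same orientation in both, the site of PB tumours 3 and 22.

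Reads per insertion ranged from 2 to 623 over both genes. Trps1 insertions had 2 to 124 reads in PB tails (median 16.5), 2 to 623 in PB tumours (median 8), 2 to 171 in SB tails (median 17) and 2 to 44 in SB tumours (median 9). Crim1 insertions had 4 to 91 (median 24.5), 2 to 19 (median 4) and 3 to 223 (median 39.5) in PB tails, PB tumours and SB tails, and 24 in the SB tumour. The median insertion of the median sample had 33.8, 8.5, 22 and 16 reads in PB tails, PB tumours, SB tails and SB tumours, so reads differed between groups for all insertions, and percentiles within the sample were compared instead. No insertion in either gene was among the 10 most read of its sample.

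The most read of all 185 was a Trps1 insertion in PB tumour 24, labelled MES_LN, with 623 reads, rank 37 of its sample and 0.355% of the sample's reads. In Crim1 the highest rank, 34, was that of PB tail 2, with 62 reads. The mean percentile of Trps1 insertions was 37.9 ± 13.97 in 11 PB tails and 49.9 ± 16.2 in 25 PB tumours, a difference of -12.0 with a permutation p of 0.0417 and an adjusted p of 0.375, which did not hold after correction. With insertions of at least 10 reads it turned to 1.99. That of Crim1 insertions was 58.3 ± 29.2 in 8 PB tails and 43.1 ± 20.99 in 15 PB tumours (exact permutation p = 0.161, adjusted p = 0.611). With insertions of at least 10 reads this difference of 15.2 was 29.4, over 6 tails and 6 tumours, and did not pass either (exact permutation p = 0.00866, adjusted p = 0.156). Insertions at or above the 90th percentile numbered 2 of 46 and 5 of 63 in Trps1 and 2 of 14 and 1 of 21 in Crim1, in PB tails and PB tumours.

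**Figure D3:**
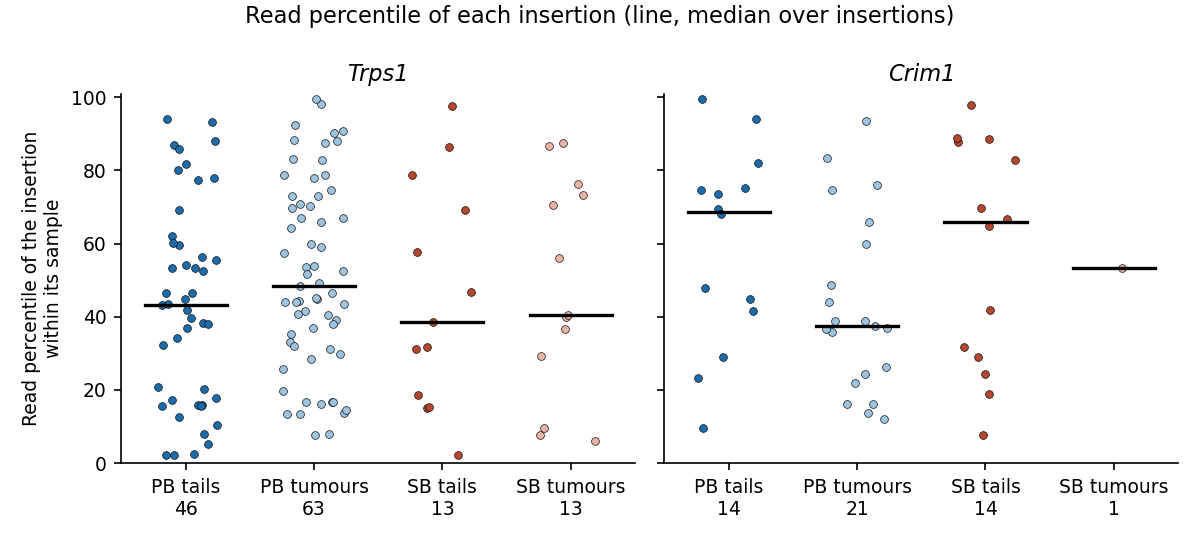
Read percentile of each Trps1 (left) and Crim1 (right) insertion within its sample, by group, with a line at the median over insertions and the number of insertions under each group. The points spread widely in each group with more than 1 insertion, with none above the 90th percentile for Trps1 in SB tumours, and with medians of 43.3 and 48.4 for Trps1 and 68.7 and 37.5 for Crim1 in PB tails and PB tumours.

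In PB, no tumour site with over 1 sample had a mean rate above that of the tails for either gene. Trps1 averaged 5.44 per 10000 in 5 tumours labelled LN, 5.32 in 6 labelled MES_LN, 5.94 in 9 labelled MES_MASS and 2.58 in 6 spleens. The MES_MASS mean includes the tumour at 26.4. The other tumours of that label had at most 7.60, so this mean rests largely on 1 tumour. Crim1 averaged 1.93, 1.42, 1.16 and 0.996 at the same sites. In SB, Trps1 insertions were in 1 of 2 tumours labelled MES_MASS, 1 of 3 spleens, and the samples labelled THYMUS, PROX_SI and SI_MASS, and in 0 of 2 labelled MES_LN.

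Across all genes, tails and tumours were compared by edgeR's quasi-likelihood test on the number of insertions in each gene, scaled to all insertions of a sample, for genes with 10 or more in the system. In PB, 3371 genes were tested, of which 74 (2.20%) were called higher and 68 (2.02%) lower in tails at an adjusted p under 0.05. In SB, 1130 genes were tested, with 2 (0.177%) called higher and 8 (0.708%) lower. Other settings moved the PB split: 46 were higher and 121 lower with TMM, which changes the scaling, and 19 and 70 with DESeq2, which changes both the scaling and the test. The median log2 change of all PB genes was -0.20, and it moved to -0.38 with TMM and -0.40 with DESeq2; for SB genes it was -0.01, 0.21 and 0.24. As a description without a p, Trps1 had a log2 of tails over tumours of 1.14 ± 0.34 (SE) in PB and -0.18 ± 0.58 in SB. Crim1 had 0.999 ± 0.49 in PB and 2.56 ± 0.79 in SB. Counted from the highest change, Trps1 ranked 224 and Crim1 296 of the 3371 PB genes, and 675 and 4 of the 1130 SB genes. Relative to the median of all genes, Trps1 stood at 1.33, 1.31 and 1.31 in PB and at -0.17, -0.15 and -0.19 in SB with the total, TMM and DESeq2, and Crim1 at 1.19, 1.16 and 1.17 in PB and 2.57, 2.51 and 2.30 in SB. The sign of Trps1 in SB turned to 0.05 with TMM and with DESeq2, to 0.20 with at least 10 reads, and to 0.22 with presence per sample. With presence, Trps1 in PB stood at 0.46. Mouse names begin with a number that tails and tumours share in part, and with it as a block Trps1 stood at 0.95 ± 0.41 in PB and -0.31 ± 0.71 in SB, and Crim1 at 1.69 ± 0.60 and 1.76 ± 1.02.

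Hair follicle and cartilage, where Trps1 is expressed, depend on many regulators, and a list of 42 genes was examined in the same fits, with transcription factors, signals and receptors, matrix genes of cartilage and partners of Trps1. Of these, 41 lay on the chromosomes used, and 20 had enough insertions in PB to be tested. Of the 20, 6 were called higher in PB tails and 0 lower, beside 2.20% and 2.02% of all genes. The list was chosen with earlier results of these data known, so this count is a description and no independent test of the list. The median log2 change of the 20 was 0.29, against -0.20 for all genes, and 14 of 20 were above 0. The background depends on how many insertions a gene has. In the fit of PB genes with at least 30 insertions, 41 of 806 were called higher, a larger share than the 74 of 3371. Of those 41, 5 were on the list. The 6 were Sox5 and Sox6, partners of Sox9 in cartilage, Gli2 and Gli3, the transcription factors that end the hedgehog pathway, Nfib, a factor of hair follicle stem cells, and Bnc2, the zinc finger protein basonuclin 2. For the lower direction, 1 gene of the list had an unadjusted p below 0.05 and DESeq2 called 1, in both cases Zeb1, a repressor of epithelial genes, which is named after its values were seen. Zeb1 was also called lower with TMM, with at least 10 reads and with at least 30 insertions.

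Gli3 had 20 insertions in 9 of 12 PB tails and 12 in 10 of 30 PB tumours. Its rate was 0 to 19.7 per 10000 in tails with a median of 3.36, and 0 to 5.95 in tumours with a median of 0, and the log2 change was 2.11 ± 0.47 SE (adjusted p = 0.00123 by edgeR). Gli2 was hit in 9 of 12 tails and 7 of 30 tumours, with medians of 3.02 and 0 (log2 1.98 ± 0.53 SE, adjusted p = 0.0120 by edgeR). Nfib was hit in 11 of 12 tails and 15 of 30 tumours, with medians of 6.78 and 0.529 (log2 1.55 ± 0.41 SE, adjusted p = 0.00872 by edgeR). The tails and tumours overlapped for each of these genes. With the number in mouse names as a block, Gli3 (adjusted p = 0.256 by edgeR) and Gli2 (adjusted p = 0.0861 by edgeR) were not called, and Nfib was. Nfib was not called when every gene with at least 1 insertion was tested.

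Sox6 was hit in 10 of 12 PB tails and 22 of 30 PB tumours, with medians of 5.86 and 2.16 per 10000 and a log2 change of 1.43 ± 0.39 SE (adjusted p = 0.0126 by edgeR). Bnc2 was hit in 11 and 21, with medians of 5.47 and 1.94 (log2 1.48 ± 0.41 SE, adjusted p = 0.0138 by edgeR), and Sox5 in 8 and 14, with medians of 3.27 and 0 (log2 1.49 ± 0.48 SE, adjusted p = 0.0471 by edgeR). With the block, Sox6 (adjusted p = 0.232 by edgeR) and Sox5 (adjusted p = 0.151 by edgeR) were not called, and Bnc2 was. None of Sox6, Bnc2 and Sox5 was called with TMM or without positions shared by samples. The same held with every gene of at least 1 insertion. Bnc2 was also not called with at least 10 reads. The Sox5 call also ended without the PB tumour with the fewest insertions (adjusted p = 0.0520 by edgeR), with the donor and sex chromosomes in the total (0.0564) and with at least 10 reads (0.0795). Of the list's other genes, those with the most insertions in tails did not pass: Nfia, a relative of Nfib, had 39 in PB tails and 67 in PB tumours (adjusted p = 0.146 by edgeR), Foxp1, a forkhead factor of hair follicle stem cells and of B cells, had 32 and 120 (adjusted p = 0.759 by edgeR), and Tcf4 had 27 and 84 (adjusted p = 0.922 by edgeR).

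In SB, 11 genes of this list were tested and 0 were called in either direction, beside 0.177% and 0.708% of all genes; 1 in each direction had an unadjusted p below 0.05 (Tcf7l2 higher and Zeb2 lower in tails, named after their values were seen), and DESeq2 called 0. With at least 10 reads Tcf7l2 was called higher. Sox6 was hit in 11 of 11 SB tails and 4 of 11 SB tumours, with a log2 of 0.97 ± 0.57 SE (adjusted p = 0.591 by edgeR), and Nfib in 6 SB tails and 1 SB tumour, too few insertions for the test. Whether the change of any list gene differed between PB and SB was not tested. The PB count of 6 was 0 with joined and 1 with separated names, 3 with TMM, 3 without positions shared by samples, 2 with every gene of at least 1 insertion, 2 with the number in mouse names as a block (Nfib and Bnc2), and 0 when presence per sample replaced the number of insertions, a fit in which edgeR called no gene, with 210 at an unadjusted p below 0.05. DESeq2 called 4 of the 6 higher. It gave Gli2 no adjusted p and did not call Sox5 (adjusted p = 0.115 by DESeq2). With at least 10 reads, edgeR called 4 genes of the list higher in PB tails.

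Crim1 belongs to the BMP pathway, in which ligands bind paired receptors, the receptors phosphorylate Smad proteins, extracellular regulators control the ligand, and Id and Msx genes respond. Of 43 genes listed, 41 lay on the chromosomes used and 12 were tested in PB, with 1 called higher and 0 lower in tails, beside 2.20% and 2.02% of all genes; none of the 12 had an unadjusted p below 0.05 in the lower direction, and DESeq2 called 0 in either. The median log2 change of the 12 was 0.43, against -0.20 for all genes, with 7 of 12 above 0. This list too was chosen with earlier results of these data known, so its count is a description. The gene called was Tll1, a tolloid-like protease that cleaves the BMP inhibitor chordin. It had 0 to 9.30 insertions per 10000 in PB tails, with a median of 3.11 and hits in 8 of 12, and 0 to 3.55 in PB tumours, with a median of 0 and hits in 7 of 30 (log2 2.22 ± 0.51 SE, adjusted p = 0.00143 by edgeR). It was not called with joined names or with presence per sample, and DESeq2 gave it no adjusted p.

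Of the receptors, Bmpr1b had 10 insertions in PB tails and 19 in PB tumours (adjusted p = 0.512 by edgeR) and Acvr1 had 7 and 6 (adjusted p = 0.146 by edgeR). The extracellular regulator Nell1 had 8 and 22 (adjusted p = 0.854 by edgeR). In SB, 6 genes of the list were tested and 0 were called, beside 0.177% and 0.708% of all genes, so that a count of 0 is near the background; 0 had an unadjusted p below 0.05, and DESeq2 called 0. The BMP list took 19.7 insertions per 10000 in PB tails and 13.1 in PB tumours, and 18.9 and 18.03 in SB tails and SB tumours, while the hair and cartilage list took 68.2 and 46.1 in PB and 31.3 and 27.4 in SB.

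**Figure D4:**
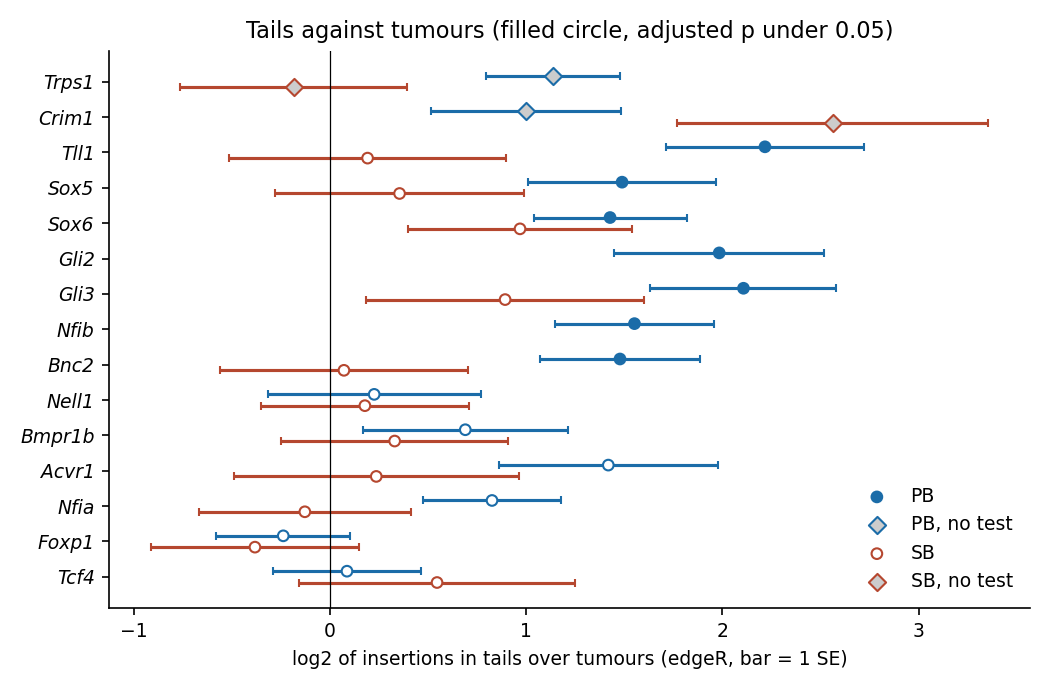
Log2 of insertions in tails over tumours with 1 SE, in PB (blue) and SB (red), for Trps1 and Crim1 (diamonds, no test) and for the genes of both lists named in the text (circles, filled where the adjusted p was under 0.05). The 7 filled points are all PB and run from 1.43 for Sox6 to 2.22 for Tll1, and Crim1 in SB stands at 2.56; Gli2 and Nfib had too few insertions in SB for a point.

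The genes with the pattern most like that of Trps1 were found by the distance of log2 observed over expected insertions over the 4 groups, among 395 genes with at least 20 insertions in tails. The nearest were Arid5b, a chromatin factor, at a distance of 0.65, Map3k20 at 0.71, Ankrd17 at 0.83 and Rap1gds1 at 0.86. Arid5b had 20 insertions in PB tails, 27 in PB tumours, 7 in SB tails and 5 in SB tumours. For Crim1 they were Arhgap21 at 0.71, Pds5b at 0.73, Tcf7l2, a Wnt effector, at 0.83, Pdlim5 at 0.99 and Nfib at 1.29. Arhgap21 had 9, 12, 11 and 1 insertions in the 4 groups, and Tcf7l2 had 9, 28, 13 and 1. The distances are a description over 4 groups, with no test.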

How the data were processed

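Insertions came from splinkerette PCR of transposon junctions and 75 bp paired-end sequencing. The deposited values are raw read counts per insertion, not normalized, at least 2 in every line, with positions on mm10 per the labels; the aligner, insertion caller and read filters are not given in the sources used here, and their effect was not examined. The authors' further per-sample column (1), a normalized coverage, was not used.

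Each line was assigned to the TTAA (PB) or TA (SB) that holds it, or the nearest within 5 bp, and counted once per sample and site. Chromosomes 14 (donor), X and Y were left out. Samples had 757 to 10801 insertions and 55502 to 5721846 reads. Gene spans were those of curated RefSeq transcripts of GRCm38, and sequences were read from its RefSeq genome. Tails and tumours were compared with edgeR 4.0.16 (quasi-likelihood, Benjamini-Hochberg, at least 10 insertions per gene), tested on simulated data, and strand, position and reads with two-sided permutation tests over samples (100000 resamples, exact with under 10 samples in a group). PCR reads are not independent molecules.

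Alternatives covered read minimum, shared positions, every deposited line, name form, gene minimum, TMM, DESeq2 1.42.0, presence, chromosomes in the total, region size, samples with at least 3 insertions and medians. Leaving out the PB tumour with the fewest insertions, and the first number of the mouse name (within its name form) as a block, were chosen after seeing the data. The labels do not say what that number marks. The members and lists were chosen with earlier results of these data known. Named were list genes called in either system, 3 others of each list with the most insertions in tails (the rule allowed up to 6), neighbours, and the 5 genes most like each member, of which 1 is not reported here; other names are marked.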

Additional observations from a re-analysis of the deposited data

Results flagged for a closer look

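In 2 of 12 sets of 4 to 10 samples, a sample lay far from the others by Dixon's criterion, which chance alone would meet in about 1 of 20 sets. PB tail 4 had its only Crim1 insertion 144 kb from the transcription start, in intron 8, while the median over 8 PB tails was 39.9 kb. SB tail 5 had its only Crim1 insertion against the gene, a sense share of 0%, while the median over 9 SB tails was 66.7%. A sample with 1 insertion can only have a share of 0% or 100%, so no conclusion is drawn from this value.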

How the results depend on the processing

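The rates of both genes in the 4 groups moved by less than 1 SD under all 56 alternatives. Some moved by over 1.5 times: Trps1 in SB tumours from 3.13 to 1.36 with at least 10 reads, which put it below the SB tails (2.35), and, with the donor and sex chromosomes in the total, SB tails from 2.66 to 1.53 for Trps1 and from 3.08 to 1.73 for Crim1. None of the strand, position and read tests that could be run passed under any of the 9 settings (18 tests each, and 12 with separated names and over samples with at least 3 insertions; lowest adjusted p 0.156). This says nothing of 9 of the 12 over samples with at least 3 insertions. It also says nothing of 3 tests in each other setting but separated names. The groups of these tests are too small to reach 0.05. With separated names, Crim1 distance in PB tails against PB tumours had the lowest p its groups allow. This p was 0.0286 by exact permutation (adjusted p = 0.206), so the test could not pass by itself. Of the unpassed differences, 18 changed sign. Crim1 distance, PB minus SB tails, was 12.5 kb with joined names and 1.31 kb over samples with at least 3 insertions. Crim1 percentile was -18.2 over such samples and -4.09 with separated names (PB minus SB tails), and 19.7 with at least 10 reads (SB tails minus tumours). Crim1 sense share with joined names was 20.8 points against PB tumours and 15 against SB tails. Trps1 distance, PB tails minus tumours, was 7.35 kb with at least 10 reads and 9.32 kb between medians, and its percentile was 1.99 with at least 10 reads. Trps1 percentile, PB minus SB tails, was 16.7 over samples with at least 3 insertions and 6.16 with separated names, and SB tails minus tumours 6.82 with joined names and 5.03 in the extended region. Trps1 sense share was -5.56 between medians and -10.5 with separated names (PB tails minus tumours), 16.3 over samples with at least 3 insertions (PB minus SB tails) and -6.67 with joined names (SB). The cause was not tested for any of these.

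Genes called higher in PB tails were 74, and 19 with DESeq2, 46 with TMM, 47 with at least 1 insertion, 46 with at least 10 reads, 41 with at least 30 insertions, 18 with joined and 13 with separated names, 28 with the number in mouse names as a block and 0 with presence. Those lower were 68, and 121 with TMM, 23 with at least 1 insertion, 10 and 17 with joined and separated names, 45 without shared positions, 26 with that block and 0 with presence. In SB, 2 were higher, and 1 with DESeq2, at least 1 or at least 30 insertions, 4 with at least 10 reads and 0 with presence; 8 were lower, and 1 with DESeq2, 16 with the donor and sex chromosomes in the total and 0 with presence. Of the hair and cartilage list, 6 were higher in PB, and 3 with TMM or without shared positions, 2 with at least 1 insertion or with the block, 1 with separated names and 0 with joined names or presence; 1 was lower with DESeq2, TMM, at least 10 reads or at least 30 insertions, and 1 was higher in SB with at least 10 reads. The BMP list's 1 became 0 with DESeq2 (no adjusted p), at least 30 insertions (not tested), joined names or presence. The fits by name form held fewer samples, the minimum of 30 insertions left fewer genes, and that of 1 insertion brought more genes (14400 in PB and 9979 in SB); other causes were not tested.

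Log2 changes of uncalled genes that changed sign were, with the donor and sex chromosomes in the total, which moves the median of all SB genes from -0.01 to -0.33, Acvr1 -0.0598, Bmpr1b -0.00647, Bnc2 -0.26, Nell1 -0.17 and Tll1 -0.12 in SB; with joined names, Bmpr1b -0.23, Nell1 -1.25 and Tcf4 -0.27 in PB and Nell1 -0.16 and Nfia 0.10 in SB; with presence, Foxp1 0.39 in PB, and Bmpr1b -0.36, Foxp1 0.0943 and Nell1 -0.0173 in SB; with separated names, Foxp1 0.59 in PB; with DESeq2, Nell1 -0.0938 and Tcf4 -0.27 in PB and Nfia 0.12 in SB; with TMM, Tcf4 -0.14 in PB and Nfia 0.11 in SB; and with the block, Tll1 -0.30, Nell1 -0.0481, Acvr1 -0.13 and Nfia 0.43 in SB. SB genes could not be fitted with separated names, which no SB tumour has, and Trps1 fell under the minimum of 30 insertions in SB. No paired analysis was possible because each mouse gave 1 sample and the labels do not say what the numbers in mouse names mark. As a block, the first number of the name covered 6 numbers with both tissues in PB (11 tails, 19 tumours) and 4 in SB (6 tails, 9 tumours); Gli2, Gli3, Sox5 and Sox6 were then not called (adjusted p 0.0861 to 0.256 by edgeR), and Tll1, Nfib and Bnc2 were. The strand, position and read tests were not run with it. Depth limits the rates of single samples, in which 3 insertions are 2.78 to 39.6 per 10000.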
